A study of Mus musculus with 20 samples.

Results

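The Hox genes of the mouse were followed through reprogramming of fibroblasts in cells with and without the histone demethylase JMJD3. The members were a fixed list of 38 Hox genes in 4 clusters, taken from 21938 protein-coding genes by name and not by any measured value. HoxA and HoxB each held 10 of them, and HoxC and HoxD each held 9. For every gene the H3K27me3 peaks within 5 kb of a transcription start site (TSS) were counted in 10 peak lists, and KLF4 peaks and JMJD3 positions were located inside the clusters.

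Hox genes encode homeodomain transcription factors that give cells their position along the body axis. Within a cluster the genes lie in the order in which they are used from head to tail, so that low paralogue numbers are anterior and high ones posterior. Fibroblasts keep a Hox pattern that reflects where in the body they came from. Hox genes that are not in use are the classical targets of Polycomb repression: Polycomb repressive complex 2, with its enzyme EZH2, places H3K27me3 over them, and the demethylases JMJD3 (KDM6B, product of Kdm6b) and UTX can remove it. KLF4 is a zinc-finger factor that binds GC-rich CACCC-type sequences and is one of the OSKM reprogramming factors.

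The study profiled chromatin by ChIP-seq in mouse embryonic fibroblasts (MEFs) and in MEFs on their way to induced pluripotency. By the sample labels, WT cells were Jmjd3+/+ MEFs of strain C57BL/6J-OG2, which carry an Oct4-GFP reporter, and KO cells were Jmjd3-/- MEFs of strain C57Bl6J. By these labels genotype and strain cannot be told apart. For knockout reprogramming the paper describes littermate WT and KO MEFs that lack this reporter. It does not say which MEFs gave the ChIP-seq lists. Untreated MEFs of both genotypes gave 1 H3K27me3 list each. The other 8 lists came from cells transduced with Oct4, Sox2, Klf4 and c-Myc (OSKM) in medium with vitamin C, sampled at day 5 or day 10, WT or KO, each with either a FLAG control vector or overexpressed JMJD3. KLF4 ChIP came from day 5 WT cells with FLAG or with JMJD3. Anti-FLAG ChIP for FLAG-JMJD3 came from day 5 cells with OSKM or with OSlowKM, in which the amount of KLF4 virus was reduced. These cells are mixed populations of which only some reprogram. Every group was 1 library, so that no difference between groups has a replicate check, and intervals given here (Wilson, 95%) cover counting error only. The peak files carry no read counts, and the read totals that the study lists for the day 5 and day 10 H3K27me3 libraries were not used here.

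The genes (Col1a1, Col1a2, Col3a1, Fn1, Thy1, Twist1, Prrx1, Pdgfrb, Vim and Lum), which fibroblasts use, served as a check of the labelled cell type. Between 0 and 3 of these 10 genes had an H3K27me3 peak in a given list, and 7 of them had none in all 10 lists, where 77.6% of all protein-coding genes had none. Thy1 had a peak in 6 lists, Twist1 in 2 and Col1a1 in 1. In day 10 KO cells, 2 of the 10 with FLAG and 3 with JMJD3 stood above the shares of all genes in those lists (12.8% and 11.7%). The lists held 3045 to 6954 peaks of 1000 bp, with the shortest in day 10 WT cells with JMJD3 and the longest in untreated WT MEFs. A peak list cannot show the deletion in the KO cells. A list of fixed-width peaks gives positions of strongest signal, and an H3K27me3 domain broader than that appears as several separate peaks.

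The Hox clusters were densely marked in every list. In untreated MEFs 36 of 38 Hox genes had a peak in WT cells and 29 of 38 in KO cells, against 14.6% and 10.3% of all protein-coding genes. At day 5 the WT cells had a peak at 34 Hox genes with FLAG and at 33 with JMJD3 (all genes 14.7% and 11.0%). The KO cells had a peak at 31 with FLAG and at all 38 with JMJD3 at that day (13.7% and 13%). At day 10 the WT counts were 33 with FLAG and 28 with JMJD3 (12.1% and 8.26%), and the KO counts were 33 with FLAG and again 38 with JMJD3 (12.8% and 11.7%). Both lists in which no Hox gene lacked a peak were thus from KO cells with JMJD3, although neither was the longest list.

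**Figure D1:**
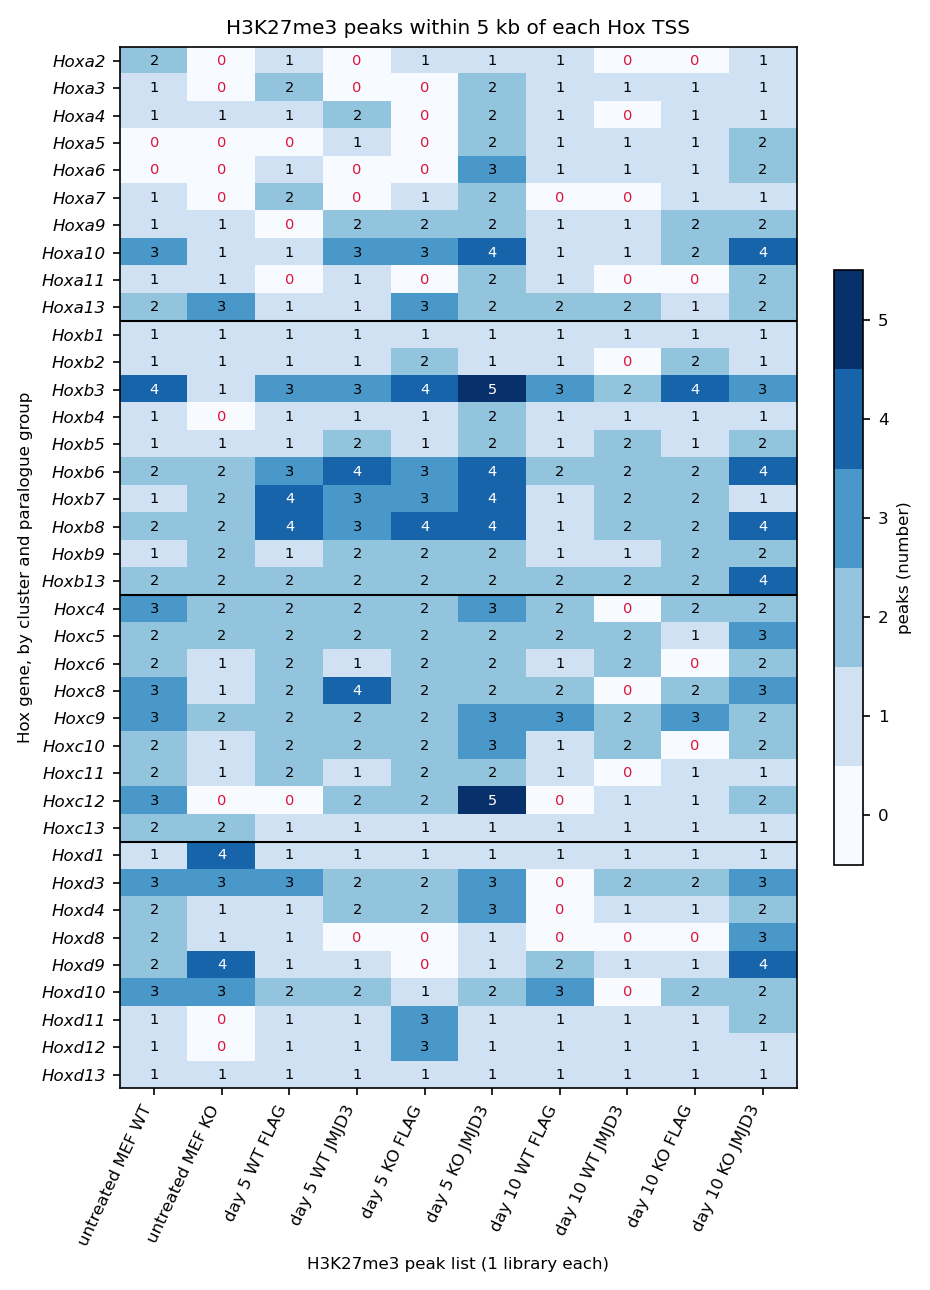
Number of H3K27me3 peaks within 5 kb of a TSS for each of the 38 Hox genes (rows, by cluster and paralogue group) in each of the 10 lists (columns, 1 library each); darker blue is more peaks and a red 0 is none. The 2 columns of KO cells with JMJD3 hold no 0, and most of the red zeros lie in the HoxA rows.

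The clusters, taken as member gene bodies plus 5 kb on each side, spanned 524988 bp in total. In mm10, HoxA lay at chr6:52157417-52265880, HoxB at chr11:96189316-96373256, HoxC at chr15:102916103-103041852 and HoxD at chr2:74663310-74770142. Peaks covered between 7.78% of this length, in day 10 WT cells with JMJD3, and 16.5%, in day 5 KO cells with JMJD3. The windows of 5 kb around all protein-coding TSSs were covered at 0.790% to 1.44%. Genes beside the clusters gave other counts: of the 24 nearest to the clusters on either side (3 per side, other than Hox and Evx genes), 17 had no peak in any list, and between 1 and 4 had one in a given list. Skap1, next to Hoxb1, was the only one of these 24 with a peak in all 10 lists. The homeobox genes Evx1 and Evx2, which lie beside the posterior ends of HoxA and HoxD, had a peak in every list.

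**Figure D2:**
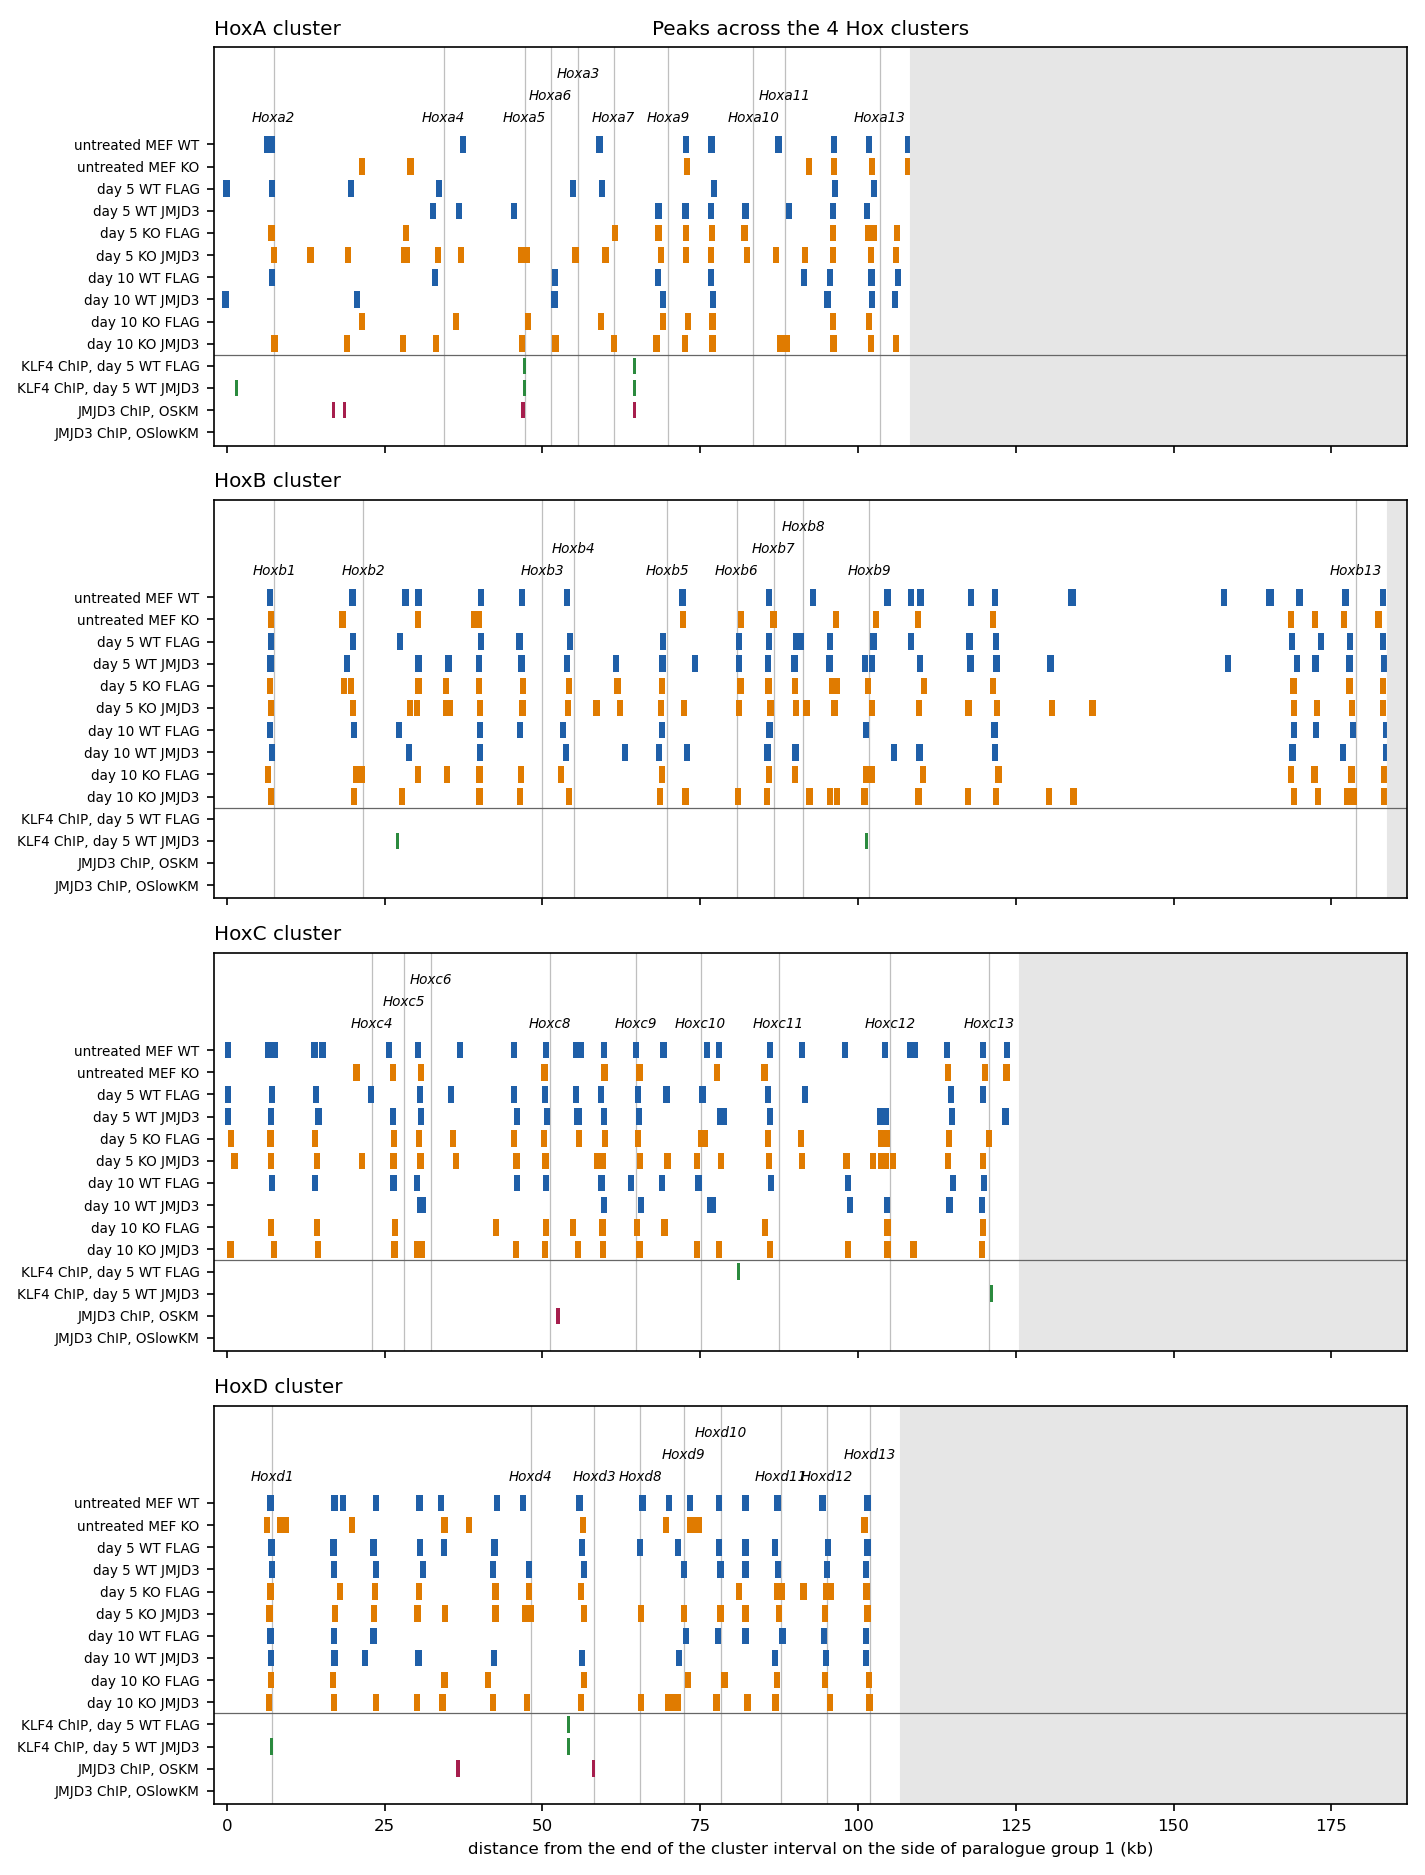
Positions of peaks along the 4 Hox clusters, in kb from the end of each interval on the side of paralogue group 1; blue and orange boxes are H3K27me3 peaks of WT and KO cells, green boxes are KLF4 peaks, dark red marks are JMJD3 positions (all drawn wide enough to be seen), vertical lines are 1 TSS per gene, and grey shading lies beyond the interval. H3K27me3 peaks of several lists line up at places in every cluster, 7 of the 13 loci found in all 10 lists being in HoxB, whereas KLF4 and JMJD3 appear at a few places only.

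Promoter sequences of RefSeq (GRCm38.p6, the same assembly as mm10) were matched by symbol for 22 of the 38 Hox genes. Their 300 bases, most of them before the start, held a median of 17.5 CG dinucleotides (range 4 to 45), against 8 for all 27018 genes with a promoter sequence. CpG-rich promoters are the usual substrate of Polycomb complexes. The 6 matched genes with a peak in all 10 lists had a median of 25 CG and the 16 others one of 14.5, with ranges of 10 to 45 and 4 to 29 that overlapped. Hoxb8 and Hoxa2 are shown because, among the matched genes, they had the most and the fewest H3K27me3 peaks summed over the lists, 28 and 7. Capitals mark each CG, 13 in Hoxb8 (chr11:96281655-96281954, plus strand) and 9 in Hoxa2 (chr6:52164782-52165081, minus strand).
Hoxb8: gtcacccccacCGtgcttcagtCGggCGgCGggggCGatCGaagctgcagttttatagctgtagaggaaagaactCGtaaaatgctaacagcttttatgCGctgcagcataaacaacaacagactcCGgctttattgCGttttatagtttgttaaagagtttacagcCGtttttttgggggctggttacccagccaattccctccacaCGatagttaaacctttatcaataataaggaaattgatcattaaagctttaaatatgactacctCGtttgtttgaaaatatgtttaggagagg
Hoxa2: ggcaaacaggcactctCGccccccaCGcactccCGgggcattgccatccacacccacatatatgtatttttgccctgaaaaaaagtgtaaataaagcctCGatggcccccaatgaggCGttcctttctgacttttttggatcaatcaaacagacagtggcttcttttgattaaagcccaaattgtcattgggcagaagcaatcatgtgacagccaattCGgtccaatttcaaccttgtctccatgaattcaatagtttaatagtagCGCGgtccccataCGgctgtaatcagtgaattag

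Many Hox genes were marked throughout: 15 of 38 had a peak in all 10 lists, against 4.68% of all protein-coding genes. These 15 genes were Hoxa10, Hoxa13, Hoxb1, Hoxb3, Hoxb5, Hoxb6, Hoxb7, Hoxb8, Hoxb9, Hoxb13, Hoxc5, Hoxc9, Hoxc13, Hoxd1 and Hoxd13. Another 14 lacked a peak in 1 list only. Every Hox gene had a peak in at least 5 lists, whereas 77.6% of all genes had none in any list. Neighbouring Hox genes lie closer than 5 kb in many places and share peaks, so that these counts are not independent between genes.

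Hoxb1, which sets the identity of a hindbrain segment, had 1 peak in each list. That peak stood between the 84.4th and the 98.5th percentile of scores in 9 of the lists, and its lowest percentile was 61.9. Hoxd1, known for its role in sensory neurons, had 1 peak in 9 lists and 4 in untreated KO MEFs. Its best peak was the top-ranked Hox peak in 4 of the 10 lists, reaching the 99.6th percentile in day 10 WT cells with FLAG. The anterior-most genes of HoxB and HoxD thus held some of the best-scoring peaks.

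Hoxd13, which patterns digits, also had 1 peak in each of the 10 lists. Hoxb13, the most posterior gene of HoxB and known from prostate and tail, had 2 peaks in 9 lists and 4 in day 10 KO cells with JMJD3. All genes of paralogue groups 1 and 13, the 2 ends of the clusters, had a peak in every list (20 of 20 and 40 of 40 gene-list pairs). Hoxb6, Hoxb7 and Hoxb8, which act in the trunk and in early blood cells, often shared their best peak, and each had a median best percentile of 90.7 over the lists. Hoxb8 had 2 peaks in each untreated MEF list, 4 and 3 in day 5 WT cells with FLAG and with JMJD3, and 4 in both day 5 KO lists. At day 10 it had 1 and 2 in WT cells and 2 and 4 in KO cells, in the same order.

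At the level of positions, the peaks of all lists merged into 102 loci within the clusters. Of these, 13 loci (12.7%) were occupied in all 10 lists, against 7.78% of 15511 loci in the series. Only 14 loci (13.7%) were seen in a single list, against 46.9% in the series. HoxB held 7 of the 13 persistent loci, among them 1 at the start of Hoxb7 (chr11:96286160-96288118) and 3 around Hoxb13. HoxC had 2 at Hoxc9, a thoracic gene, HoxA had 1 between Hoxa11 and Hoxa13 and 1 at Hoxa13, and HoxD had 1 each at Hoxd1 and Hoxd13.

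The clusters differed in how steadily they were marked. Over the 380 gene-list pairs a peak was absent in 47, of which 26 lay in HoxA, 2 in HoxB, 8 in HoxC and 11 in HoxD. HoxA genes had a peak in 74.0% of their pairs, HoxB genes in 98.0%, HoxC genes in 91.1% and HoxD genes in 87.8%. By list, HoxA ranged from 5 of 10 genes, in untreated KO MEFs and in day 5 KO cells with FLAG, to 10 of 10 in both KO lists with JMJD3. HoxB never had fewer than 9 of 10. Coverage showed the same weak place, with a median over the lists of 8.57% for HoxA, 11.0% for HoxB, 13.2% for HoxC and 12.4% for HoxD.

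Anterior genes (paralogue groups 1 to 4) had a peak in 96 of 110 gene-list pairs, central genes (5 to 8) in 91 of 110 and posterior genes (9 to 13) in 146 of 160. Those shares were 87.3%, 82.7% and 91.3%. The difference between posterior and anterior genes was 3.98 percentage points, with 0.966 when all transcripts were used, 8.47 at 3045 peaks per list and 10.5 with a TSS distance of 1 kb. The shares in single lists ran from 63.6% to 100% for anterior and from 81.3% to 100% for posterior genes. The low share of central genes came from HoxA and HoxD: it was 60.0% for Hoxa5, Hoxa6 and Hoxa7 and 50.0% for Hoxd8, against 100% for central HoxB and 93.3% for central HoxC genes. The order of the 3 classes was not the same in every cluster.

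Hoxd8 had a peak in the fewest lists, 5 of 10. It had 2 peaks in untreated WT MEFs, 1 in untreated KO MEFs and 1 in day 5 WT cells with FLAG. At day 5 the JMJD3 list of WT cells and the FLAG list of KO cells had 0, against 1 in KO cells with JMJD3. At day 10 both WT lists and the FLAG list of KO cells had 0, and KO cells with JMJD3 had 3. Both KO lists with JMJD3 thus held a Hoxd8 peak that the KO lists with FLAG did not.

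Hoxa5, needed for the lung and for the skeleton at the base of the neck, had no peak in either untreated MEF list nor in day 5 cells with FLAG of either genotype. It had 1 peak in day 5 WT cells with JMJD3 and 1 each in the day 10 lists of WT cells with FLAG, WT cells with JMJD3 and KO cells with FLAG. It had 2 peaks in KO cells with JMJD3 at both days. Hoxa6, its neighbour, had no peak in the untreated MEF lists, in day 5 WT cells with JMJD3 or in day 5 KO cells with FLAG, but 3 and 2 in KO cells with JMJD3 at day 5 and day 10 and 1 in each of the other 4 lists. These were the 2 Hox genes without a peak in untreated WT MEFs, in which every other Hox gene had at least 1.

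Hoxa2, which patterns the second branchial arch, had 2 peaks in untreated WT MEFs and 0 in KO MEFs. In WT cells it had 1 with FLAG and 0 with JMJD3 at both days. In KO cells it had 1 with FLAG and 1 with JMJD3 at day 5, and 0 and 1 at day 10. Hoxa7 had 1 and 0 in untreated WT and KO MEFs, 2 and 0 in day 5 WT cells with FLAG and JMJD3, and 1 and 2 in day 5 KO cells. At day 10 it had none in WT cells and 1 in each KO list. Hoxa3 carries a single TSS in the basic annotation, which lies beside Hoxa6 and Hoxa7, and so its peaks are largely those of these 2 genes.

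The H3K27me3 list was shorter with JMJD3 than with FLAG in 3 of the 4 pairs, and the ratio of cluster peaks was above that of the whole list in each pair. Both moved the same way in day 5 KO and day 10 WT cells, and in opposite ways in the other 2 pairs. The ratio of cluster peaks with JMJD3 to those with FLAG was 1.10 in day 5 WT cells (66 against 60 peaks), where the ratio for the whole list was 0.788. In day 5 KO cells it was 1.37 (89 against 65) with a list ratio of 1.16. In day 10 WT cells it was 0.935 (43 against 46) with a list ratio of 0.593, and in day 10 KO cells 1.50 (75 against 50) with a list ratio of 0.907. The number of Hox genes with a peak changed by -1, 7, -5 and 5 in the same order, a mean of 1.5 genes. The day 5 WT value was 0 with 1 TSS per gene and 1 with each peak given to its nearest TSS, and the day 10 WT value was 0 with a TSS distance of 10 kb. An exact two-sided sign-flip test over the 4 pairs did not pass the usual threshold, and this design allows no p below 0.125.

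The share of a list that lay inside the clusters was higher with JMJD3 in 4 of 4 pairs. It was 0.933% (interval 0.726 to 1.20) and 1.30% (1.03 to 1.65) in day 5 WT cells with FLAG and with JMJD3. In day 5 KO cells it was 1.15% (0.905 to 1.47) and 1.36% (1.11 to 1.67). Day 10 WT cells gave 0.897% (0.673 to 1.19) and 1.41% (1.05 to 1.90), and day 10 KO cells 0.930% (0.706 to 1.22) and 1.54% (1.23 to 1.92). The counting intervals overlapped in the first 3 pairs and lay apart in the last, by a narrow margin. A share of a list is relative and does not measure the amount of H3K27me3. It also rises when peaks become fewer elsewhere, and the list was shorter with JMJD3 in 3 of the 4 pairs. The paper, using a spike-in, reported a lower H3K27me3 signal with JMJD3 at day 5.

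When every list was reduced to its 3045 best-scoring peaks, the clusters again held more peaks with JMJD3 in 4 of 4 pairs. Counts at equal length are likewise relative to the rest of the list. The counts were 41 with FLAG and 48 with JMJD3 in day 5 WT cells, 39 and 62 in day 5 KO cells, 36 and 43 in day 10 WT cells and 33 and 60 in day 10 KO cells. Hox genes with a peak then numbered 29 and 26, 26 and 34, 30 and 28, and 24 and 37. In WT cells with JMJD3 the clusters thus held more peaks while fewer Hox genes had one near a TSS. In KO cells both numbers were higher with JMJD3. The peak counts cover the whole clusters and the gene counts only the TSS windows.

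**Figure D3:**
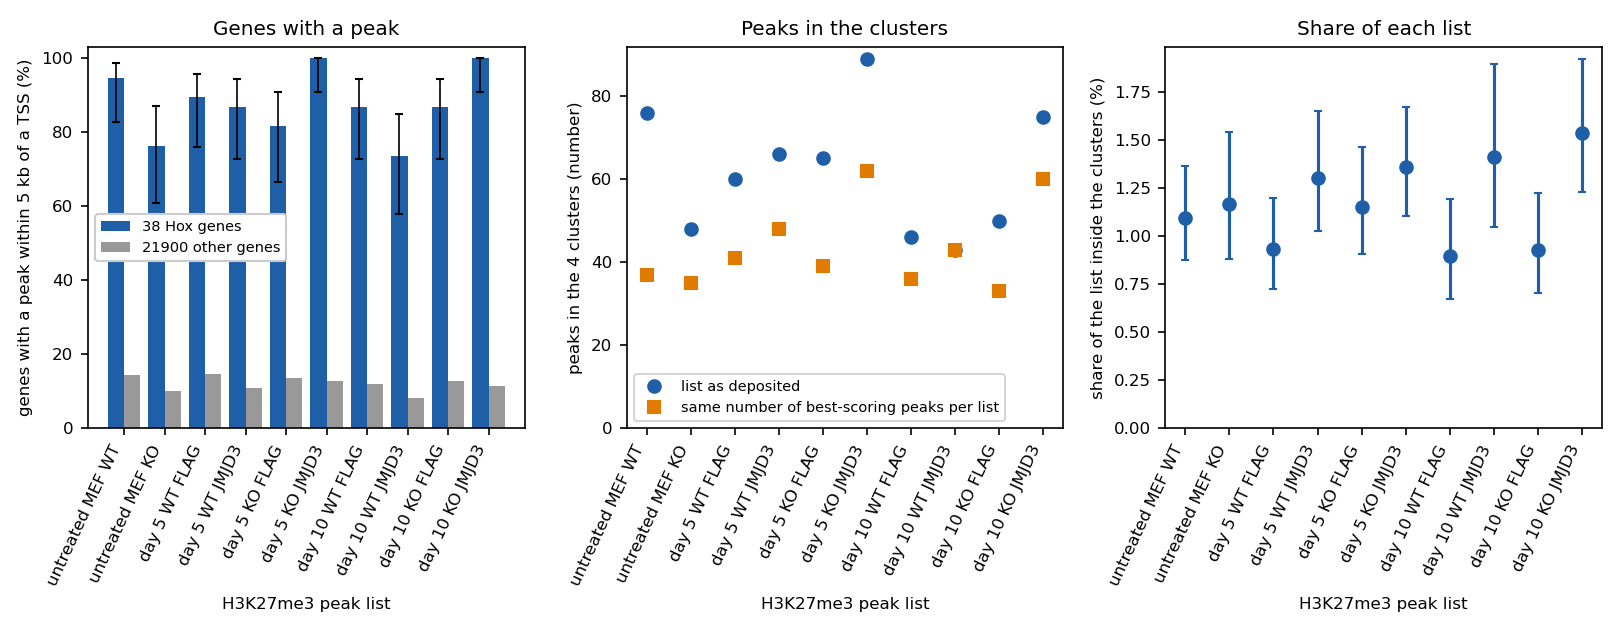
Views of the 10 H3K27me3 lists: left, percent of the 38 Hox genes (blue, 95% Wilson interval) and of the 21900 other genes (grey) with a peak within 5 kb of a TSS; middle, peaks in the 4 clusters in the deposited list (blue circles) and among the 3045 best-scoring peaks (orange squares); right, share of the list inside the clusters with its 95% Wilson interval. Each JMJD3 point of the right panel lies above the FLAG point of the same day and genotype.

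In day 5 WT cells the FLAG peak of 5 Hox genes had no counterpart with JMJD3 (Hoxa2, Hoxa3, Hoxa6, Hoxa7 and Hoxd8), which was 14.7% of the 34 against 31.8% of all genes with a FLAG peak. That gap was not kept in shorter lists: at 3045 peaks per list 9 of 29 lost it (31.0%, all genes 25.7%), and with the better-scoring 50% of each list 10 of 29 (34.5%, all genes 33.0%). With JMJD3 only, 4 Hox genes had one (Hoxa5, Hoxa9, Hoxa11 and Hoxc12), where 1.12% of all genes without a FLAG peak did so. Since only 4 Hox genes lacked a FLAG peak, all of those gained one. The background of gain, here and below, is mostly genes without a peak in any list. Every Hox gene had one in at least 5 lists, so that the sets compared are unlike.

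In day 10 WT cells the same held for 8 Hox genes (all genes 41.3%). These were Hoxa2, Hoxa4, Hoxa11, Hoxb2, Hoxc4, Hoxc8, Hoxc11 and Hoxd10. Hoxc12, Hoxd3 and Hoxd4 had one with JMJD3 only (all genes 1.30%). Hoxc8, which specifies motor neurons of the forelimb level, had 4 peaks in day 5 WT cells with JMJD3 but 0 in day 10 WT cells with JMJD3, against 2 with FLAG at each day. Hoxd3, which acts in the upper neck vertebrae, had 0 peaks in day 10 WT cells with FLAG and 2 to 3 in the other 9 lists.

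In KO cells no Hox gene lost its peak with JMJD3 in the deposited lists, which follows from all 38 having one there. At 3045 peaks per list 2 of 26 lost it at day 5 and 1 of 24 at day 10 (all genes 22.3% and 23.9%). At day 5 the background of loss was 20.5% of genes with a FLAG peak and that of gain 2.48%, and 7 Hox genes had a peak with JMJD3 only (Hoxa3, Hoxa4, Hoxa5, Hoxa6, Hoxa11, Hoxd8 and Hoxd9). At day 10 the backgrounds were 25.1% and 2.42%, and 5 Hox genes had a peak with JMJD3 only (Hoxa2, Hoxa11, Hoxc6, Hoxc10 and Hoxd8). The gain depended on how many Hox genes lacked a FLAG peak. At day 10 it was 5 of 5, against 12 of 13 with a TSS distance of 1 kb (all genes 2.07%), 14 of 14 at 3045 peaks per list (2.2%) and 1 of 1 with a TSS distance of 10 kb (2.78%). At day 5 it was 7 of 7, and 1 of 1 with 10 kb (3.32%). The day 5 gain was not complete with a TSS distance of 1 kb (8 of 12, all genes 1.78%) or at 3045 peaks per list (10 of 12, 1.49%). Hoxa11, which patterns the forearm and the uterus, was in both groups: it had 0 peaks with FLAG and 2 with JMJD3 at each day. Every cluster held more peaks with JMJD3 at both days in KO cells. At day 10 these were 15 against 9 in HoxA, 25 against 19 in HoxB, 18 against 12 in HoxC and 17 against 10 in HoxD.

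Hoxc12, a posterior gene next to the hair and nail gene Hoxc13, varied most among the HoxC genes. It had 3 peaks in untreated WT MEFs and 0 in untreated KO MEFs. In WT cells it had 0 with FLAG and 2 with JMJD3 at day 5, and 0 and 1 at day 10. In KO cells it had 2 and 5 at day 5, and 1 and 2 at day 10. Its count was higher with JMJD3 in all 4 pairs.

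Positions of the FLAG peaks were kept to differing degrees. Of the FLAG peaks inside the clusters, 71.7% (43 of 60, interval 59.2 to 81.5) overlapped a JMJD3 peak in day 5 WT cells, against 53.6% of the whole list. In day 5 KO cells 92.3% (60 of 65, 83.2 to 96.7) did so, against 66.2%. The shares at day 10 were 50.0% (23 of 46, 36.1 to 63.9) against 40.4% in WT cells, and 74.0% (37 of 50, 60.4 to 84.1) against 55.6% in KO cells. The list-wide value lay below the interval in 3 of the pairs and inside it in day 10 WT cells, where the kept share was lowest. With the better-scoring 50% of each list the list-wide value lay inside the interval in all 4 pairs, the kept shares being 59.5% and 80.0% at day 5 (whole lists 60.8% and 76.3%) and 41.2% and 80.0% at day 10 (43.0% and 63.9%). The kept shares thus came close to those of the list in 3 of the pairs. In day 10 KO cells the share stayed above that of the list, with a wide interval from 30 peaks (62.7 to 90.5). The reverse shares did not stand above the list in the same way. Of the JMJD3 peaks inside the clusters, 65.2% overlapped a FLAG peak in day 5 WT cells (whole list 67.9%), 67.4% in day 5 KO cells (57.0%), 55.8% in day 10 WT cells (67.5%) and 52.0% in day 10 KO cells (61.3%). The share was below that of the list in 3 of the 4 pairs, with the list value inside the interval in those 3. Peaks that share a cluster are not independent, and these intervals treat them as if they were.

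Between genotypes, untreated KO MEFs lacked a peak at 7 Hox genes that had one in WT MEFs (Hoxa2, Hoxa3, Hoxa7, Hoxb4, Hoxc12, Hoxd11 and Hoxd12) and gained none. That was 19.4% of the 36, against 35.6% of all genes lost and 1.01% gained. The cluster peaks numbered 76 in WT and 48 in KO MEFs, a ratio of 0.632 beside a list ratio of 0.591. HoxC alone had 26 and 11. At 3045 peaks per list the clusters held 37 and 35 peaks, and 28 and 27 Hox genes had a peak, so that at equal length little of the difference was left. The low share of loss turned with the TSS distance: at 1 kb 14 of 24 Hox genes (58.3%) lost the peak, against 36.1% of all genes, and at 2.5 kb 14 of 34 (41.2%), against 35.2%.

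From untreated MEFs to day 5 with FLAG, WT cells lost the peak at Hoxa9, Hoxa11 and Hoxc12 and gained it at Hoxa6 (all genes 22.2% lost and 3.93% gained). KO cells lost it at Hoxa4, Hoxa11, Hoxd8 and Hoxd9 and gained it at Hoxa2, Hoxa7, Hoxb4, Hoxc12, Hoxd11 and Hoxd12 (all genes 15.2% and 5.51%). From day 5 to day 10 with FLAG, WT cells lost it at 4 of 34 Hox genes and gained it at 3 (all genes 28.5% and 1.87%), and KO cells lost it at 3 of 31 and gained it at 5 (all genes 22.6% and 2.57%). Without added JMJD3, calls at Hox genes thus shifted between time points in both directions in each genotype.

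With FLAG at day 5, 5 Hox genes had a peak in WT cells only (Hoxa3, Hoxa4, Hoxa6, Hoxd8 and Hoxd9) and 2 in KO cells only (Hoxa9 and Hoxc12), beside 17.9% and 1.83% of all genes. With FLAG at day 10, 4 did so in each direction (all genes 18.4% and 3.29%). Hoxa2, Hoxa11, Hoxc6 and Hoxc10 had a peak in WT cells only, and Hoxa7, Hoxc12, Hoxd3 and Hoxd4 in KO cells only. With JMJD3 no Hox gene had a peak in WT cells only at either day, where 9.16% of all genes with a WT peak did so at day 5 and 12.0% at day 10. That count was fixed in advance, since both KO lists with JMJD3 held a peak at all 38 Hox genes. In KO cells only, 5 Hox genes had one at day 5 (all genes 3.39%) and 10 at day 10 (all genes 4.82%). The 10 were spread over the 4 clusters and included 4 HoxA genes, Hoxb2, 3 HoxC genes and 2 HoxD genes. The KO minus WT difference over the 5 pairs had a mean of 1 gene with a range of -7 to 10, and its mean turned to -1.2 with a TSS distance of 10 kb. An exact sign-flip test over these pairs did not pass the usual threshold, which 5 pairs cannot reach.

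Scores placed the KO lists with JMJD3 highest at the TSS distance of 5 kb. The score of a peak has no stated scale and was ranked within its own list. The median Hox gene had its best peak at the 84.7th percentile in day 5 KO cells with JMJD3 and at the 76.5th in day 10 KO cells with JMJD3, where the other genes with a peak had medians of 69.4 and 64.7. In the other 8 lists the Hox median lay between 60.3 and 71.5 and that of the other genes between 60.8 and 67.8. With a TSS distance of 10 kb the order changed, since day 10 KO cells with FLAG stood at 85.3, above the 84.4 of day 10 KO cells with JMJD3. The best peak lay at or above the 75th percentile of its list for 29 of 38 Hox genes in day 5 KO cells with JMJD3, for 22 of 38 in day 10 KO cells with JMJD3 and for 7 to 14 in the other lists. A gene with more peaks has more chances of a high best peak, and Hox genes had more: in day 5 KO cells with JMJD3, 28 of 38 had 2 or more, against 1.81% of all other genes.

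**Figure D4:**
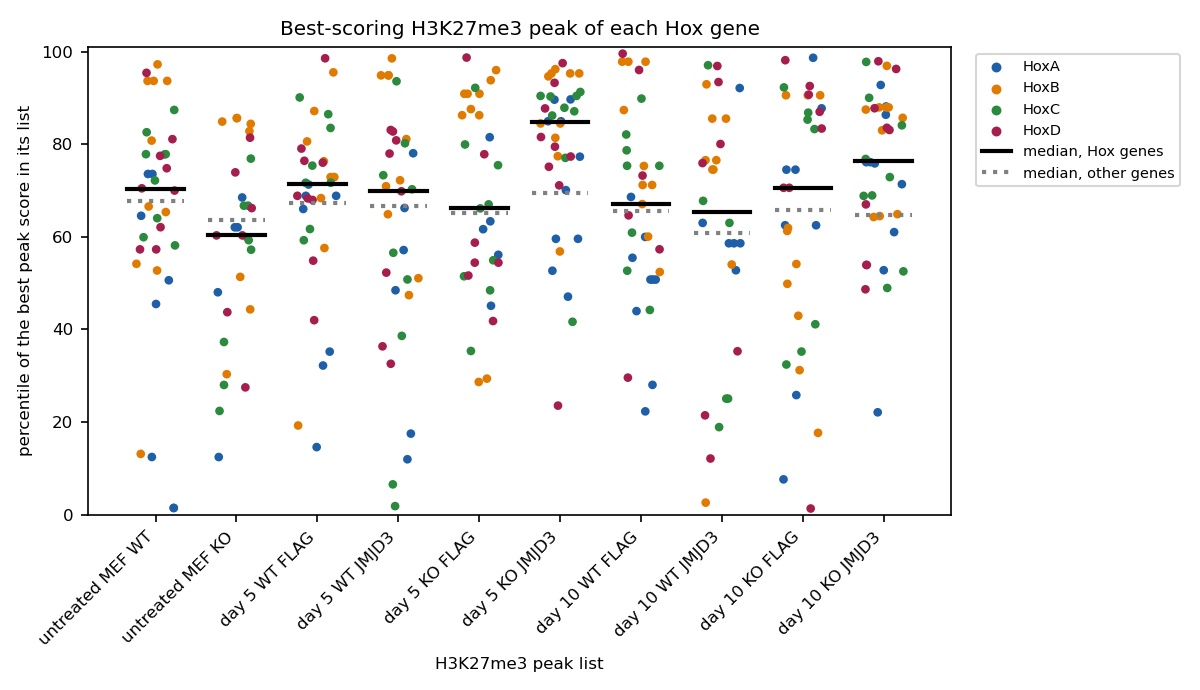
Percentile, within its own list, of the best-scoring H3K27me3 peak within 5 kb of a TSS of each Hox gene with a peak (points, coloured by cluster), with the median of the Hox genes (black line) and of all other genes with a peak (dotted grey line) in the 10 lists. The black line stands above the dotted line in the 2 lists of KO cells with JMJD3, at 84.7 and 76.5, and close to it elsewhere; genes that share a peak have the same value.

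KLF4 and JMJD3 were found at few places in the clusters. The KLF4 lists had 4 peaks there with FLAG and 8 with JMJD3, and the JMJD3 lists 7 positions with OSKM and 0 with OSlowKM. Per 100 kb of cluster this was 0.762, 1.52, 1.33 and 0, against 2.52, 3.52, 2.08 and 0.323 in the windows around all TSSs. A KLF4 peak lay within 5 kb of a TSS for 5 Hox genes with FLAG and 9 with JMJD3 (all genes 28.0% and 37.1%). A JMJD3 position did so for 6 Hox genes with OSKM and none with OSlowKM (all genes 21.0% and 3.66%). The OSlowKM list was short (2284 positions, against 14067), and its count of 0 in the clusters says little at that length.

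HoxA held the places where both factors met. At Hoxa5 a KLF4 peak covered the TSS in both lists (chr6:52204510-52204711 with FLAG and chr6:52204522-52204730 with JMJD3), and a JMJD3 position lay inside the gene at chr6:52204336, 251 bp downstream of the start. Upstream of Hoxa7, outside any gene body, KLF4 peaks of both lists (chr6:52221764-52222252 with JMJD3 and chr6:52221801-52222278 with FLAG) contained the JMJD3 position chr6:52221972. The windows of Hoxa5, Hoxa6, Hoxa7 and Hoxa9 reach these sites, of which Hoxa5, Hoxa6 and Hoxa7 had an H3K27me3 peak in 6 of the 10 lists each and Hoxa9 in 9. Another 2 JMJD3 positions lay in the body of Hoxa3. Whether these facts are related was not tested.

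In HoxD a KLF4 peak lay in an intron shared by the annotated bodies of Hoxd3 and Hoxd4 in both lists (chr2:74715798-74716120 with FLAG and chr2:74715824-74716157 with JMJD3). JMJD3 positions there were chr2:74712017, in an exon of Hoxd3, and chr2:74733527. In HoxC a JMJD3 position lay 1234 bp upstream of Hoxc8, and a KLF4 peak of the FLAG list lay 6020 bp upstream of Hoxc10. The KLF4 list was longer with JMJD3 (14391 peaks, against 10655 with FLAG), and its whole-list share without an overlapping FLAG peak is not given here. In the JMJD3 list only, 5 KLF4 peaks in the clusters had no overlapping FLAG peak. They lay in exons of Hoxb9 and Hoxb3, 354 bp upstream of Hoxc13, over the start of Hoxd1, and in HoxA at chr6:52158794-52158996, 5936 bp downstream of the start of Hoxa2 and outside any gene body. HoxB had no KLF4 peak with FLAG and no JMJD3 position.

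Some KLF4 sites of the clusters lay over H3K27me3, though not always in the matching list. In day 5 WT cells 0 of 4 KLF4 peaks with FLAG and 2 of 8 with JMJD3, those at Hoxb9 and Hoxd1, overlapped an H3K27me3 peak of the matching list (whole KLF4 lists 1.46% and 0.841%). Counting a peak of any of the 10 lists, 1 of the 4 and 5 of the 8 did so (whole KLF4 lists 3.06% and 4.00%). Peaks of the 10 lists together covered 36.4% of the cluster length, so that such an overlap is common there for any position. The Hoxd1 site was overlapped in 9 of the 10 lists and the Hoxb9 site in 5. The Hoxa5 site was overlapped in 3 lists, all from KO cells, the Hoxb3 site in 2, both from WT cells with FLAG, and the Hoxc13 site in 1, day 5 KO cells with FLAG. None of the 7 JMJD3 positions overlapped an H3K27me3 peak of day 5 WT cells with JMJD3, where 0.121% of the whole JMJD3 list did so, a share at which 7 positions would seldom give any. In any list 2 of the 7 did so (whole list 1.16%), both in KO cells with JMJD3 only.

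These 4 sites are shown for comparison, each as letters of GRCm38.p6. Capitals mark GGGNGTG or GGGTGG on either strand (read on the other strand as CACNCCC or CCACCC), the CACCC-type letters that KLF factors prefer. The Hoxa5 and Hoxd1 promoters (chr6:52204538-52204837, minus strand, and chr2:74762730-74763029, plus strand) carry the KLF4 peaks over a start. The Hoxa7 upstream site (chr6:52221873-52222072) is centred on the JMJD3 position and the HoxD intronic site (chr2:74715891-74716090) on the KLF4 peak, both on the plus strand.
Hoxa5: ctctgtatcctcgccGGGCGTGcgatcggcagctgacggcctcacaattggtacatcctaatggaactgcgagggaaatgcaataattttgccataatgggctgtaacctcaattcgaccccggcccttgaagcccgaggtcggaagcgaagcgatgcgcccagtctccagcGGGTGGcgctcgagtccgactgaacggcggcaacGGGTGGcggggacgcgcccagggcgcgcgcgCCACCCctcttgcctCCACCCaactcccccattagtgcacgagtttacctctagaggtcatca
Hoxd1: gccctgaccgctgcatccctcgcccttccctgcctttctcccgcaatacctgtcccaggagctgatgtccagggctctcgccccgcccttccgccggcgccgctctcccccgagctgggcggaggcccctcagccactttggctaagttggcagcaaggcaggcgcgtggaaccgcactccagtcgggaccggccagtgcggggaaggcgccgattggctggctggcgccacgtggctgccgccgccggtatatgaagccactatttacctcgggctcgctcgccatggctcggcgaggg
Hoxa7 upstream: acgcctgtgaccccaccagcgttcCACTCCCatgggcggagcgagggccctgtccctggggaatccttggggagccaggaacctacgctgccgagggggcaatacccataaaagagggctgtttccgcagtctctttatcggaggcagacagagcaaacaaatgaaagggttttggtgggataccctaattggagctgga
HoxD intronic: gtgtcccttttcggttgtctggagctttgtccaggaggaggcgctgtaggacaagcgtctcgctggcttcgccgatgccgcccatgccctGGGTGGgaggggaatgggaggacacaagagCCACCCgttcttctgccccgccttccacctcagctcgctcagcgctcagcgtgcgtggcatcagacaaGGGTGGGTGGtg

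Hoxa5 had 1 match to GGGNGTG and 4 to GGGTGG in these 300 bases, and the HoxD site had 4 to GGGTGG, 2 of them overlapping. The GGGNGTG match of Hoxa5 lay upstream of both KLF4 peaks and outside them. The Hoxa7 site had 1 match to GGGNGTG. Hoxd1 had neither, which says only that these letters are not in this window. Within 200 bp windows centred on all KLF4 peaks, GGGNGTG was present in 49.2% with FLAG and 47.4% with JMJD3, and GGGTGG in 34.5% and 35.3%. In 200 bp around the JMJD3 positions with OSKM these shares were 25.8% and 27.2%. Of all 32841 promoter sequences of 300 bases, 29.2% held GGGNGTG and 31.5% held GGGTGG, and of the 24 promoters of the 22 matched Hox genes 10 held each.

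Genes that work with or resemble Hox genes set these values in context. Of 9 cofactors of Hox proteins (the Pbx, Meis and Pknox genes), 1 to 3 had an H3K27me3 peak in a given list and 6 had none in any. Pknox2 was the exception, with a peak in all 10 lists. Of the 6 ParaHox genes, the evolutionary sister group of the clusters, 3 to 6 had a peak. Gsx1, Gsx2 and Cdx1 had one in every list.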

How the data were processed

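ChIP-seq peak lists of 14 libraries were used, 1 per group, and 6 of the 20 samples (4 inputs and 2 H3K27ac libraries) had no list used here. The authors aligned reads to mm10 with Bowtie2 (2.2.0 in the submitters' processing notes), called H3K27me3 peaks with DFilter and KLF4 and JMJD3 peaks with MACS2, and deposited H3K27me3 peaks with a score of unstated scale. A Drosophila spike-in was used for H3K27me3, and whether it entered the peak calls is not given in the sources used here. The KLF4 and JMJD3 lists were deposited as intervals and as single positions without a score. All 94568 intervals lay within the chromosomes of GRCm38.p6.

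TSSs came from the basic transcripts of GENCODE M21. A gene was called marked when a peak lay within 5 kb of any of its TSSs. Scores were ranked within a list. Overlap required 1 bp. With 1 library per group the only tests were exact two-sided sign-flip tests of the number of marked Hox genes over the 4 FLAG and JMJD3 pairs and over the 5 WT and KO pairs, neither of which can pass the usual threshold. On simulated peaks, 200 of 200 planted within 5 kb and 0 of 200 planted beyond were called. Python 3.11.15, numpy 2.4.6, pandas 2.3.3 and pysam 0.24.0 were used. Described genes were those marked in all lists or in the fewest, those whose call differed within a pair, and those with KLF4 or JMJD3 nearby. The members and lists were chosen with earlier results of these data known. Alternatives were other TSS distances and sets, assignment to the nearest TSS, the better-scoring 50% of each list, equal list lengths, other cluster borders and other overlap rules.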

Additional observations from a re-analysis of the deposited data

Results flagged for a closer look

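In the deposited lists and with all TSSs within 5 kb, the number of Hox genes with an H3K27me3 peak moved in opposite directions with JMJD3 in the 2 genotypes. The difference, JMJD3 minus FLAG, was -1 in day 5 WT cells and 7 in day 5 KO cells, and -5 in day 10 WT cells and 5 in day 10 KO cells. The sign in WT cells was not stable: at day 5 it turned to 1 with each peak given to its nearest TSS and was 0 with 1 TSS per gene or with all transcripts, and at day 10 it was 0 with a TSS distance of 10 kb. In KO cells both differences stayed above 0 under every alternative run. The number of peaks in the clusters also moved in opposite directions at day 10, by -3 in WT cells and 25 in KO cells. Each value rests on 1 library per group, and the difference between genotypes was not tested. The lists differed in length at the same time: the JMJD3 list held 0.593 times the peaks of the FLAG list in day 10 WT cells and 0.907 times in day 10 KO cells. At 3045 peaks per list the genes numbered 30 and 28 in day 10 WT cells and 24 and 37 in day 10 KO cells. The cluster peaks then numbered 36 and 43 in day 10 WT cells and 33 and 60 in day 10 KO cells, so that they no longer moved in opposite directions.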

How the results depend on the processing

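Of 377 values recomputed under another setting, 269 stayed within the limits of a small change, 106 moved and 2 changed direction. Cluster borders and paralogue class borders moved none. The use of all GENCODE transcripts was an alternative chosen after seeing the data. No fit with a replicate block could be made, since each group is a single library and the labels carry no replicate numbers. The pairs of the sign-flip tests are lists matched for day and for genotype or vector. The peak files carry no read depth, and the number of libraries limits every comparison. Where a cause is not given by the setting itself (fewer peaks, shorter or longer distances), the cause was not tested.

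With a TSS distance of 1 kb, 13 Hox genes had a peak in untreated KO MEFs. Peaks with FLAG and none with JMJD3 were then at 8 genes in day 5 WT cells and 1 in day 10 KO cells, and the reverse at 8 in day 10 WT cells and 12 in day 10 KO cells. The difference JMJD3 minus FLAG was -2 genes in day 5 WT cells, -2 in day 10 WT cells and 11 in day 10 KO cells, with a mean of 3.75. Peaks in WT and none in KO were at 14 genes in MEFs and 1 each with JMJD3 at day 5 and day 10, the mean KO minus WT difference was 2, and posterior minus anterior was 10.5 percentage points. With 2.5 kb the corresponding values were 5 genes with a JMJD3 peak only and a difference of -3 in day 10 WT cells, 14 genes lost in KO MEFs, a mean KO minus WT of 0.6 and 7.78 points.

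With 10 kb, where 31 to 38 Hox genes had a peak, losses with JMJD3 were 1 gene in day 5 WT cells and 1 in day 10 WT cells. Gains were 0 in day 5 WT cells and 1 in each other pair, and the differences were 1 and 1 in KO cells at day 5 and day 10 and 0 in WT cells at day 10, with a mean of 0.25. Losses in KO against WT were 1 with FLAG at day 5 and 1 at day 10, and the mean KO minus WT difference turned from 1 to -1.2. The median best percentile became 72.6 in untreated KO MEFs, 80.2 in day 5 WT cells with JMJD3, 77.8 in day 5 KO cells with FLAG, 75.9 in day 10 WT cells with JMJD3 and 85.3 in day 10 KO cells with FLAG.

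With 1 TSS per gene the day 5 WT difference was 0, the mean KO minus WT 0.4 and posterior minus anterior 2.39 points. With all transcripts these were 0, 0.4 and 0.966 points, and 3 genes lost their FLAG peak in day 5 WT cells. With each peak given to its nearest TSS only, the day 5 WT difference turned from -1 to 1, that of day 10 WT cells was -3 with 6 genes gained, the means were 2.75 and 1.6, and posterior minus anterior was 7.27 points.

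At the shortest list length the clusters held 37 peaks in untreated WT MEFs, 39 in day 5 KO cells with FLAG and 33 in day 10 KO cells with FLAG, covering 7.05%, 7.43% and 6.29%. Losses with JMJD3 were 9 in day 5 WT, 2 in day 5 KO and 1 in day 10 KO cells, and gains 14 in day 10 KO cells. The differences were -3 and -2 in WT cells at day 5 and day 10 and 13 in KO cells at day 10, with a mean of 4. Losses in KO against WT were 4 in MEFs, 1 with JMJD3 at day 5, 9 with FLAG at day 10 and 1 with JMJD3 at day 10, and posterior minus anterior was 8.47 points.

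With the better-scoring 50% of each list, which holds fewer peaks by construction, the clusters held 45 and 25 peaks in untreated WT and KO MEFs, 43 in day 5 WT cells with JMJD3, 35 in day 5 KO cells with FLAG, 28 in day 10 WT cells with JMJD3, and 30 and 48 in day 10 KO cells with FLAG and JMJD3. Coverage was 8.57% and 4.76% in MEFs, 8.16% in day 5 WT cells with JMJD3, 6.67% in day 5 KO cells with FLAG, and 5.71% and 9.14% in day 10 KO cells. Losses with JMJD3 were 10 in day 5 WT, 2 in day 5 KO and 1 in day 10 KO cells, gains 12 in day 5 KO and 13 in day 10 KO cells, and the differences -5 in WT cells at day 5 and 12 in KO cells at day 10, with a mean of 2.5. Losses in KO against WT were 13 in MEFs, 1 and 1 with JMJD3 at day 5 and day 10, and 8 with FLAG at day 10. The kept share of FLAG peaks in day 5 KO cells was 80.0%.

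With an overlap of at least 50% of the peak the kept share was 76.9% in day 5 KO and 54.0% in day 10 KO cells (whole lists 56.0% and 45.9%, the latter inside the interval of the clusters). With peaks within 1 kb counted it was 96.9% in day 5 KO and 65.2% in day 10 WT cells (68.9% and 42.9%). The list value then lay below the interval in every pair, day 10 WT cells included (50.8 to 77.3). With the median instead of the best peak of a gene the median percentile was 54.9 and 48.0 in untreated WT and KO MEFs, 57.2 and 52.3 in day 5 WT cells with FLAG and JMJD3, 54.7 and 68.9 in day 5 KO cells, and 65.8 in day 10 KO cells with JMJD3. The wider 50% of the KLF4 lists had 2 peaks with FLAG and 3 with JMJD3 in the clusters.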

Other observations

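The gene for JMJD3 itself, Kdm6b, held 1 H3K27me3 peak in day 5 WT cells with JMJD3, in day 5 KO cells with JMJD3 and in day 10 KO cells with JMJD3, and 0 in each of the other 7 lists. The paper overexpressed full-length mouse Jmjd3 from a retroviral vector. A peak in these lists cannot be assigned to the cell's own gene, since vector copies of the sequence cannot be told apart from it here.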
